A study of Homo sapiens with 9 samples.

Results

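The set described here holds 37 genes that mark blood stem cells, blood progenitors or leukaemic stem cells, of 60605 gene identifiers counted. They were listed by name: general stem and progenitor genes, and 14 of the 17 genes of a published expression score for leukaemic stem cells (LSC17). Their measured values played no part in the rule, but the set was proposed with earlier results of the same data known. All 37 were found by symbol, 31 of them passed the filter on low counts and could be tested, and the other 6 were at or near 0.

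RNA was sequenced from KG-1a, an established human acute myeloid leukaemia line of immature cells, in 3 groups of 3 libraries. The groups were KO clone 2 and KO clone 1, both PRMT2 knockouts made by CRISPR/Cas9 editing, and WT cells with PRMT2 intact. All cells grew in RPMI 1640 medium with 20% fetal bovine serum and none received a drug. PRMT2 belongs to the protein arginine methyltransferases, enzymes that methylate arginine residues of histones and other proteins, and the design asks which RNA levels differ when its gene is disrupted. Each knockout group is 1 clone, the labels do not say whether WT cells came from a single cell, and they do not say whether the replicates were separate cultures. The p-values therefore measure the spread between the libraries of a group, which may be technical, and not the spread between clones.

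Blood stem cells carry surface receptors such as KIT and TEK that read signals from the bone marrow niche, and a network of transcription factors, including HLF and MECOM, keeps them from differentiating. Acute myeloid leukaemia is thought to be maintained by leukaemic stem cells that keep part of this programme. The LSC17 score sums the expression of genes found in such cells, some with a positive and some with a negative weight, and was derived from patient samples sorted by their ability to engraft in mice.

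Library depth was 28006342 to 43149410 counted read pairs. KO clone 1 replicate 1 stood apart, where 13.33% of pairs were placed at more than 1 site, while the share was 3.86% to 4.51% in the other 8 libraries. Its counts also stood apart from its replicates. Between replicate libraries, the chi-square of the counts per degree of freedom was 46.4 to 47.3 in pairs with this library. In the other pairs it was 2.51 to 5.07. The numbers of members called without KO clone 1 replicate 1 were the same as with it in each comparison at the adjusted p and fold minimum. PRMT2 itself averaged 21.2 ± 0.153 counts per 1e6 (CPM) in KO clone 2 and 20.7 ± 0.544 CPM in KO clone 1, against 39.4 ± 0.393 CPM in WT (SD, n = 3 each). Its RNA was lower in both clones, with log2 fold changes of -0.89 and -0.93 in clone 2 and clone 1, and this check of the labels says nothing about PRMT2 protein.

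A gene is said to be called here at an adjusted p under 0.05 in edgeR's quasi-likelihood test over all 20655 genes tested, if its log2 fold change is also 1 or more in size. By that rule ADGRG1 was higher and HLF and NYNRIN were lower in both clones. Of all tested genes 4.34% met the rule with the same sign in the 2 clones, 1.3% higher and 3.04% lower, beside these 3 of 31 tested members. The 250 bases before the RefSeq start of each of the 3 genes are shown because these members were called with the same sign in both clones. The sequences are on build GRCh38.p14, on the plus strand and written 5′ to 3′. Capitals mark CANNTG, the E-box of basic helix-loop-helix factors such as the member TCF4.
HLF chr17:55264710-55264959: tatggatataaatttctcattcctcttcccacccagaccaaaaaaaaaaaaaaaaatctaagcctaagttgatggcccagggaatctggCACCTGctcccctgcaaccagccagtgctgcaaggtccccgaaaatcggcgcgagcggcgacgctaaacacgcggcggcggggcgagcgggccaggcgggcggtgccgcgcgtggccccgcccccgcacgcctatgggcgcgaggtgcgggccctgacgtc
NYNRIN chr14:24398753-24399002: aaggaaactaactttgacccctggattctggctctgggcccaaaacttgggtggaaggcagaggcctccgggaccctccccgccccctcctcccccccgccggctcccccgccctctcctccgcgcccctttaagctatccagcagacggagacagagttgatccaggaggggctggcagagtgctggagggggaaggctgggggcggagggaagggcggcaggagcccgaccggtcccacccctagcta
ADGRG1 chr16:57619488-57619737: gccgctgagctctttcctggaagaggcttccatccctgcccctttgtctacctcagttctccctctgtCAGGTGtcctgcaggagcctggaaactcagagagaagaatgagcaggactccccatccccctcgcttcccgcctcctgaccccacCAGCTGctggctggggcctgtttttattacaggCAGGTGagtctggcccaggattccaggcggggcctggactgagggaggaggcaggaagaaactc
RefSeq lists 2 starts for HLF, 1 for NYNRIN and 3 for ADGRG1, and the first listed is used. The ADGRG1 stretch lies inside the gene's full span, 57610652 to 57665580, and which start these cells use was not tested.

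These 3 stretches differ in base composition. The HLF stretch holds 25 CpG dinucleotides, more than 78.4% of all 35114 RefSeq promoters cut to the same length. NYNRIN has 12 and ADGRG1 has 4, beside a median of 11. On both strands, 6 motifs were searched: CANNTG, the GATA-type motifs AGATAA and TGATAA, the ETS-type CCGGAA, the RUNX-type TGTGGT, and TATAAA. The ADGRG1 stretch holds 3 E-boxes, CAGGTG at 182 and at 64 bases before the start and CAGCTG at 97. The HLF stretch holds 1 E-box, CACCTG at 161 bases before the start, and TATAAA at 244. None of the 6 motifs lies in the NYNRIN stretch. CANNTG lies in 61.8% of all promoters of this length, TATAAA in 10.7%, AGATAA in 9.17%, TGATAA in 6.66%, CCGGAA in 14.5% and TGTGGT in 11%, so a match here is a description of the letters only.

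As a set, the members are abundant in this line. The 31 tested members had a median of 74.5 CPM in WT, against 7.18 CPM over all tested genes. Their summed level was 5545 to 5593 CPM in KO clone 2 and 5445 to 5567 CPM in KO clone 1, against 4877 to 4974 CPM in WT. FAM30A alone made up 21.3% to 25.8% of that sum. Since these are bulk samples, fewer cells of a type and less RNA per cell cannot be told apart.

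Levels of different genes are compared per exon length, in transcripts scaled to 1e6 per library (TPM), with the WT cells setting the order. SMIM24 led with 612 ± 25.5 TPM in WT, followed by FAM30A at 368 ± 18.9, ZFP36L2 at 348 ± 8.75, LAPTM4B at 311 ± 8.82 and CD34 at 237 ± 4.88 TPM (SD, n = 3). FAM30A and ZFP36L2 were nearer to each other than the sum of their SDs. CPXM1 at 186, BAALC at 102, NRIP1 at 101, MMRN1 at 95, CD69 at 91.9 and ANGPT1 at 88.4 TPM came next, with BAALC and NRIP1 within their summed SDs, and likewise MMRN1, CD69 and ANGPT1. Then came MSI2 at 64.3, HOPX at 57.4, BCL11A at 50.4, MLLT3 at 41.8, TCF4 at 29.2 and ARHGAP22 at 24.1 TPM, which were all farther apart than that. CD200, AKR1C3 and SPINK2 lay within their spread at 21, 20.7 and 17.8 TPM. CRHBP, NYNRIN and ADGRG1 were at 9.09, 7.78 and 6.85 TPM, and EMP1, TIE1, KIT and HLF at 2.51, 2.02, 1.9 and 1.19 TPM, of which EMP1 and TIE1, and likewise TIE1 and KIT, were within their summed SDs. TEK, ZBTB46, PROM1 and MN1 each lay under 1 TPM in WT and were not separated beyond their spread. ADGRG1 stood higher in this order in both clones, with 27.3 ± 0.47 TPM in clone 2 and 16.5 ± 1.37 TPM in clone 1, against 6.85 ± 0.188 TPM in WT.

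Not every marker in the set was expressed in these cells. CD34, BAALC, MSI2 and SPINK2 were present, while 6 members were close to silent in all groups. MECOM had 0 counts in all 9 libraries, which allows up to 0.0695 to 0.107 CPM in a library at 3 counts each. Summed over all 9 libraries, AVP had 3 counts, BEX3 had 9, THY1 had 10, FLT3 had 12 and DPYSL3 had 49. In CPM by library, FLT3, the receptor for FLT3 ligand and a common target of mutation in this leukaemia, read 0, 0.0534 and 0.0468 in KO clone 2 and 0, 0.0621 and 0 in KO clone 1, against 0.0261, 0.0975 and 0.0308 in WT. None of these FLT3 values exceeds 4 counts a library, so no difference was detectable at this depth. For THY1, the CD90 surface antigen, 1333 reads lay on the strand opposite to the gene, where the antisense genes USP2-AS1 and THY1-AS1 overlap it, and only 10 lay on its own strand.

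**Figure D1:**
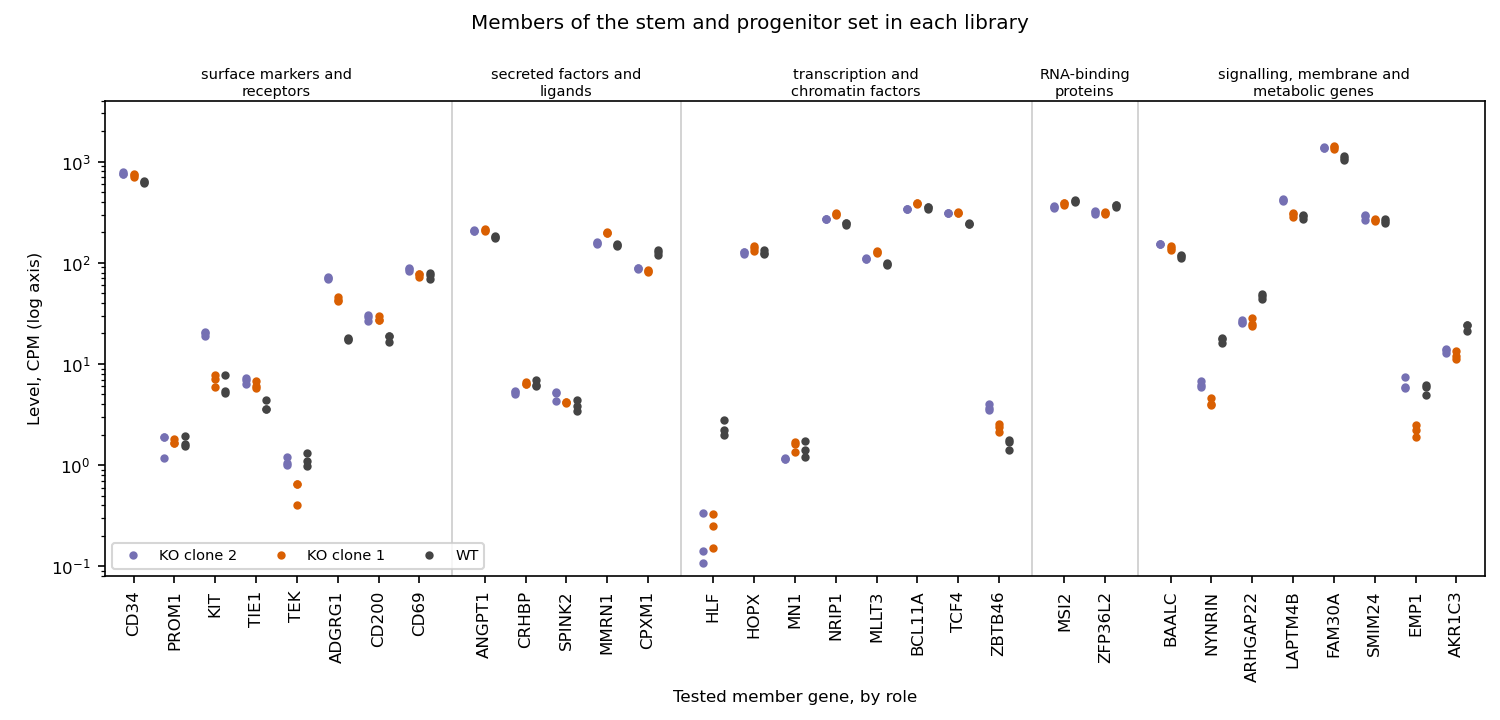
Level of each of the 31 tested members in each library, in CPM on a log axis, grouped by role, with KO clone 2, KO clone 1 and WT side by side. Levels run over several orders of magnitude, with FAM30A at 1038 to 1438 CPM at the top and HLF the lowest, and the groups of ADGRG1, HLF and NYNRIN stand clear of each other between knockout and WT.

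Counted by the rule with the fold minimum, 5 members were called in clone 2 against WT, 3 higher and 2 lower, where 5.96% of all tested genes were called, 1.83% higher and 4.13% lower. In clone 1 against WT 4 members were called, 1 higher and 3 lower, beside 7.58% of all tested genes, 2.6% higher and 4.98% lower. When the clones were averaged, 3 members were called, 1 higher and 2 lower, beside 6.53%, 2% higher and 4.53% lower. Between the clones 2 members were called, both higher in clone 2 than in clone 1, beside 2.82% of all tested genes, 1.58% higher and 1.23% lower. As shares of the 31 tested members these counts are 16.1% in clone 2, 12.9% in clone 1, 9.68% with the clones averaged and 6.45% between the clones, and each rests on 5 genes or fewer. Over the 31 tested members the median log2 fold change was 0.15 in clone 2 and 0.11 in clone 1, against 0.00 over all tested genes in either clone.

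Without the fold minimum, many members passed the adjusted p with small changes. In clone 2 against WT 24 of 31 passed, 16 higher and 8 lower, beside 30.5% of all tested genes, 14.4% higher and 16.1% lower. In clone 1 the count was 23, 14 higher and 9 lower, beside 36.2%, 17.4% higher and 18.8% lower. With the clones averaged it was 23, 15 higher and 8 lower, beside 35.3%, 16.4% higher and 18.9% lower. Abundant genes pass more often: among genes of at least 50 CPM in WT, 49.6% passed in clone 2, 54.9% in clone 1 and 54% with the clones averaged, and 13 of the 16 members at that level passed in each of these. Between the clones 16 members passed, 9 higher and 7 lower in clone 2 than in clone 1, beside 25.9% of all tested genes, 13.4% higher and 12.6% lower. At 50 CPM or more in WT, 9 of the 16 members and 46.5% of genes passed between the clones.

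In 18 members both clones passed the adjusted p alone in the same direction, 11 higher and 7 lower, beside 19.6% of all tested genes, 8.52% higher and 11% lower. That share is over genes of all levels, and none was taken for genes of at least 50 CPM in WT. No member passed in opposite directions. The comparisons share the WT libraries, so a common direction is not independent in the 2 clones. The 11 members higher in both were ADGRG1, ANGPT1, BAALC, CD200, CD34, FAM30A, MLLT3, NRIP1, TCF4, TIE1 and ZBTB46. The 7 lower in both were AKR1C3, ARHGAP22, CPXM1, HLF, MSI2, NYNRIN and ZFP36L2. BCL11A, EMP1, HOPX, MMRN1 and TEK passed against WT in clone 1 and missed the threshold in clone 2. CD69, CRHBP, KIT, LAPTM4B, SMIM24 and SPINK2 passed in clone 2 and missed it in clone 1. PROM1 and MN1 passed in neither.

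**Figure D2:**
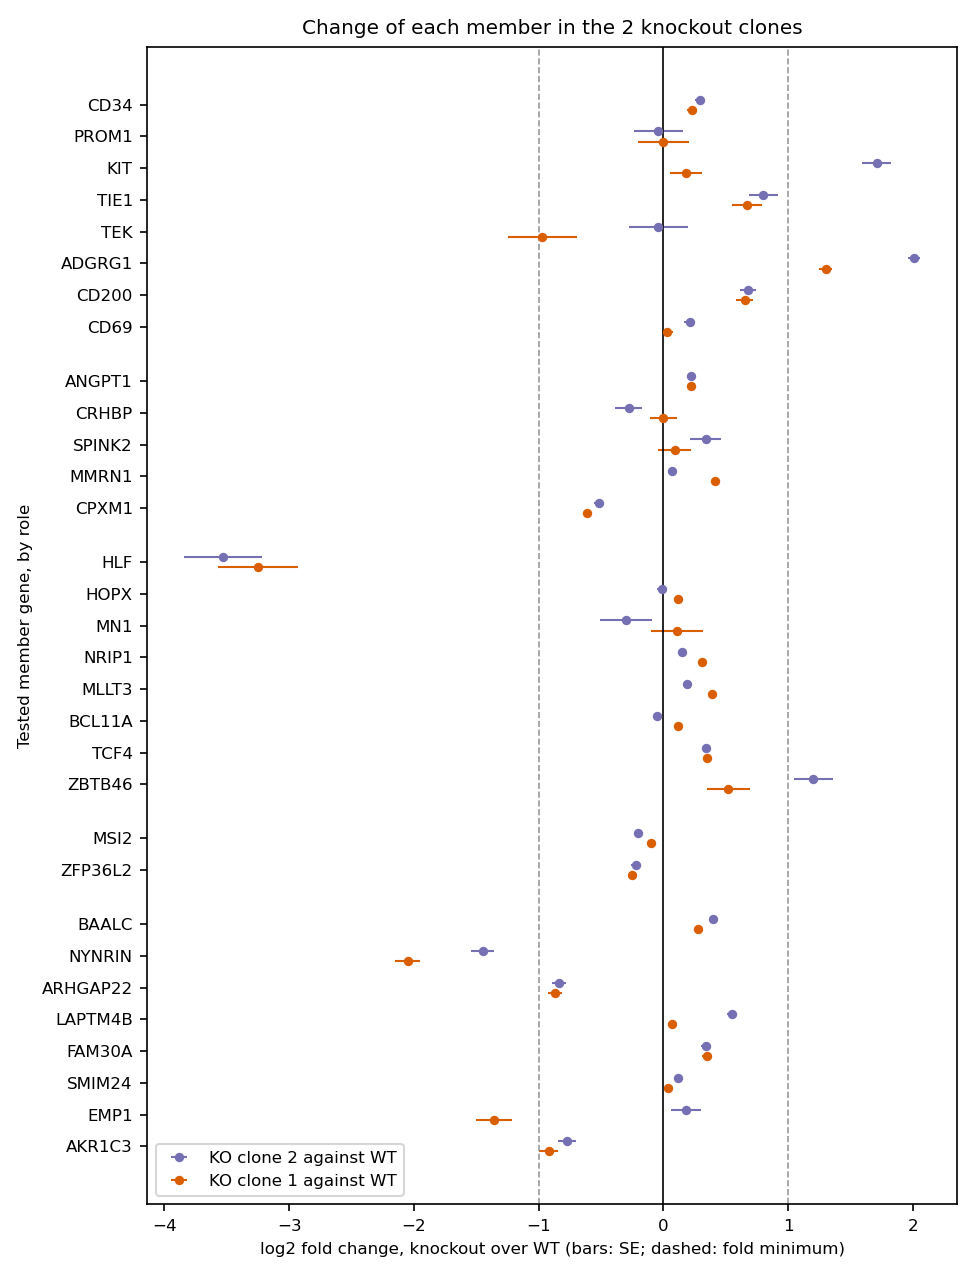
Log2 fold change of each tested member against WT on the horizontal axis, for KO clone 2 above KO clone 1 in each row, with bars for the SE and dashed lines at the fold minimum of 1 on the log2 scale. Most members lie within the dashed lines; HLF is the farthest to the left at -3.53 in clone 2, and ADGRG1 the farthest to the right at 2.01 in clone 2.

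Among the 10 surface markers and receptors, 8 could be tested. With the clones averaged, 6 of them passed the adjusted p alone as higher and none as lower, beside 16.4% and 18.9% of all tested genes. In clone 2 these counts were 6 and 0, beside 14.4% and 16.1%. In clone 1 they were 4 and 1, the lower gene being TEK, beside 17.4% and 18.8%. KIT and CD69 passed in clone 2 alone, and missed the adjusted p with both clones pooled as 1 group (0.19 and 0.206). The largest rise was that of ADGRG1, also known as GPR56, an adhesion G-protein-coupled receptor used as a surface marker of leukaemic stem cells. The gene lies on chromosome 16, at 57610652 to 57665580 on the plus strand. It read 70.9, 69.9 and 72.6 CPM in KO clone 2 and 42, 45.8 and 43.2 CPM in KO clone 1, against 17.9, 17.7 and 17.3 CPM in WT. All 6 knockout libraries were above all WT libraries, and the clone 2 libraries were all above those of clone 1.

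The rise of ADGRG1 was 4.02-fold in clone 2 (log2 fold change 2.01, SE 0.0479, adjusted p = 1.82e-31) and 2.47-fold in clone 1 (log2 fold change 1.30, SE 0.05, adjusted p = 2.49e-24). The clones differed by 0.70 on the log2 scale (SE 0.0443, adjusted p = 1.99e-16), clone 2 being the higher. The authors' deposited table, which sets both clones together against WT, lists a log2 fold change of 1.68 with an adjusted p of 9.23e-12. Its neighbour ADGRG5, another adhesion receptor gene 19 kb before it, was at 143 CPM in clone 2 and 142 CPM in clone 1, against 150 CPM in WT, with a log2 fold change of -0.07 in each clone that missed the threshold. ADGRG3, 3 kb past it, was at 1.17 CPM in clone 2 and 1.67 CPM in clone 1, against 0.636 CPM in WT, and was called in clone 1 alone (log2 fold changes 0.88 and 1.39 in clone 2 and clone 1).

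KIT is the receptor tyrosine kinase for stem cell factor and marks progenitors. It lies on chromosome 4, at 54657267 to 54740783 on the plus strand. It read 20.4, 18.8 and 20.9 CPM in KO clone 2 and 7.8, 7.14 and 5.92 CPM in KO clone 1, against 5.19, 5.46 and 7.83 CPM in WT. Clone 2 stood above both other groups with no overlap, and clone 1 overlapped WT. KIT was called in clone 2 against WT (log2 fold change 1.71, SE 0.115, adjusted p = 1.18e-11) and missed the threshold in clone 1 (log2 fold change 0.18, SE 0.129, adjusted p = 0.306), where it lay between 0.07 and 0.38 over the alternatives and passed the adjusted p without WT replicate 3 (0.38, adjusted p = 0.00888). The difference between the clones was itself called, at 1.53 on the log2 scale (SE 0.116, adjusted p = 2.66e-10). Averaged over the clones the change was 0.95 on the log2 scale, short of the fold minimum, and reached 1.00 without KO clone 1 replicate 3 and 1.14 without WT replicate 3. With both clones pooled as 1 group it was 1.15 with an adjusted p of 0.19. The authors' deposited table lists 1.13 with an adjusted p of 0.122.

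The genes around KIT were looked at after its values were seen. Of 13 tested genes within 1 Mb, 2 were called between the clones, beside 2.82% of all tested genes, and both encode receptor tyrosine kinases. PDGFRA, a platelet-derived growth factor receptor gene 359 kb before KIT, averaged 3.15 CPM in clone 2 and 0.443 CPM in clone 1, against 1 CPM in WT. It was higher in clone 2 than in clone 1 by 2.82 on the log2 scale (adjusted p = 4e-12), higher in clone 2 than in WT by 1.63, and lower in clone 1 than in WT with a log2 fold change of -1.18. KDR, a vascular endothelial growth factor receptor gene 338 kb past KIT, averaged 0.319 CPM in clone 2 and 0.0347 CPM in clone 1, against 0.173 CPM in WT. It was called between the clones (adjusted p = 0.00124) on 39 counts in clone 2 and 3 in clone 1, a ratio of 9.86 with a 95% exact counting interval of 3.13 to 49.9. Farther out, CHIC2 differed between the clones by -0.24, SRD5A3 by -0.07 and CLOCK by 0.00 on the log2 scale, none of them called.

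**Figure D3:**
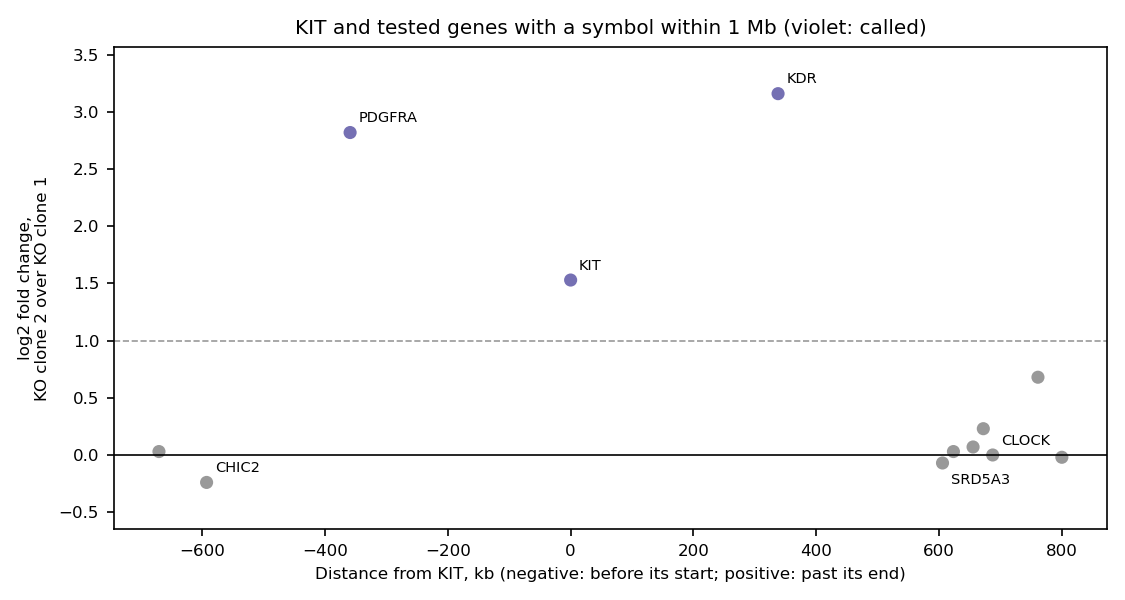
Log2 fold change of KO clone 2 over KO clone 1 (vertical axis) for KIT and the tested genes with a symbol within 1 Mb, by distance from KIT in kb (horizontal axis), with the dashed line at the fold minimum. PDGFRA at 2.82, KDR at 3.16 (from 39 and 3 counts) and KIT at 1.53 lie above the line, and the genes farther out lie below it.

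TIE1 and TEK encode a pair of related receptors, TEK binding the angiopoietins and TIE1 modulating it. TIE1 rose in both clones, to 6.77 ± 0.46 CPM in clone 2 and 6.2 ± 0.503 CPM in clone 1, against 3.87 ± 0.463 CPM in WT, with log2 fold changes of 0.80 and 0.67 (adjusted p = 3.4e-07 and 1.44e-05). TEK averaged 1.09 ± 0.105 CPM in clone 2 and 0.566 ± 0.142 CPM in clone 1, against 1.13 ± 0.178 CPM in WT (SD, n = 3 each). It fell in clone 1 (log2 fold change -0.97, SE 0.275, adjusted p = 0.00447), just short of the fold minimum, and passed that minimum in clone 1 when KO clone 1 replicate 2, KO clone 1 replicate 3 or WT replicate 2 was left out (-1.07, -1.06 and -1.07). Between the clones TEK differed by 0.93 on the log2 scale (adjusted p = 0.0088), by 1.04 or 1.03 without KO clone 1 replicate 2 or 3, and by 0.75 (adjusted p = 0.0607) without KO clone 1 replicate 1.

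CD34, the sialomucin used to select blood stem and progenitor cells, read 791, 749 and 754 CPM in KO clone 2 and 755, 713 and 738 CPM in KO clone 1, against 640, 612 and 624 CPM in WT. Every knockout library was above every WT library, while the clones overlapped each other. The rise was 1.22-fold in clone 2 (log2 fold change 0.29, SE 0.0381, adjusted p = 4.88e-08) and 1.17-fold in clone 1 (0.23, SE 0.0382, adjusted p = 3.2e-06). A long noncoding RNA gene on the opposite strand of CD34 had 883 counts beside 230522 for CD34.

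PROM1, the CD133 surface glycoprotein of stem cells, stayed low. It read 1.89, 1.17 and 1.89 CPM in KO clone 2 and 1.65, 1.83 and 1.66 CPM in KO clone 1, against 1.54, 1.95 and 1.63 CPM in WT. All 3 groups overlapped, and the log2 fold changes were -0.04 (SE 0.194) in clone 2 and 0.00 (SE 0.202) in clone 1, so a change of the size of these SEs would not have been detectable.

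CD200, a ligand that restrains myeloid cells through its receptor CD200R1, rose by similar amounts in both clones. It averaged 28.8 ± 1.92 CPM in clone 2 and 28.2 ± 1.36 CPM in clone 1, against 18 ± 1.39 CPM in WT (log2 fold changes 0.68 and 0.65, adjusted p = 1.14e-11 and 6.25e-11). CD69, a lectin-like activation antigen, averaged 86 ± 3.36 CPM in clone 2 and 76 ± 2.79 CPM in clone 1, against 74.5 ± 5.22 CPM in WT. It passed the threshold in clone 2 (log2 fold change 0.21, adjusted p = 0.000184) and not in clone 1 (0.03, adjusted p = 0.652), and the difference between the clones passed as well (0.18, adjusted p = 0.0017).

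The 6 secreted members hold 5 tested genes, none of them called. ANGPT1, the ligand of TEK, averaged 210 ± 3.25 CPM in clone 2 and 210 ± 4.09 CPM in clone 1, against 180 ± 4.47 CPM in WT, a log2 fold change of 0.22 in each clone (adjusted p = 1.19e-07 and 8.8e-08). CPXM1, a carboxypeptidase-like protein, fell to 88.3 ± 1.29 CPM in clone 2 and 82.7 ± 1.69 CPM in clone 1, against 127 ± 6.88 CPM in WT (log2 fold changes -0.52 and -0.61, adjusted p = 1.47e-15 and 1.05e-17). Both genes had all knockout libraries on the same side of all WT libraries.

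The other secreted members differed between the clones or changed little. MMRN1, which encodes the platelet and endothelial protein multimerin, averaged 157 ± 1.97 CPM in clone 2 and 199 ± 1.98 CPM in clone 1, against 150 ± 2.7 CPM in WT. It was higher than WT in clone 1 (log2 fold change 0.41, adjusted p = 5.07e-15), missed the threshold in clone 2 (0.07, adjusted p = 0.0778), and was lower in clone 2 than in clone 1 (-0.34, adjusted p = 3.93e-12). CRHBP, the binding protein of corticotropin-releasing hormone, averaged 5.28 ± 0.193 CPM in clone 2 and 6.45 ± 0.18 CPM in clone 1, against 6.43 ± 0.468 CPM in WT. SPINK2, a serine protease inhibitor, averaged 4.92 ± 0.566 CPM in clone 2 and 4.15 ± 0.0646 CPM in clone 1, against 3.9 ± 0.478 CPM in WT. Each passed in clone 2 alone, CRHBP lower (-0.28, adjusted p = 0.036) and SPINK2 higher (0.34, adjusted p = 0.0342), with SPINK2 libraries of clone 2 and WT overlapping. CRHBP missed the threshold without KO clone 2 replicate 2 or 3 or WT replicate 1 (adjusted p = 0.0764, 0.126 and 0.172), and SPINK2 without KO clone 2 replicate 1 or 3 or WT replicate 2 or 3 (0.122, 0.149, 0.176 and 0.0852). With all libraries kept, both also missed it in DESeq2's Wald test (adjusted p = 0.0574 for CRHBP and 0.0641 for SPINK2). The same held in edgeR's test with no low-count filter (0.0791 and 0.0514).

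Ligands and partners of the member receptors were read from a list of 9 genes, of which 4 could be tested. KITLG, which encodes stem cell factor, averaged 0.00808 CPM in clone 2 and had 0 CPM in clone 1 and in WT. ANGPT2, the second angiopoietin, averaged 46.2 ± 1.29 CPM in clone 2 and 43 ± 0.65 CPM in clone 1, against 46.1 ± 1.56 CPM in WT, with log2 fold changes of 0.00 and -0.10 that missed the threshold. CD200R1, the receptor of CD200, averaged 3.73 ± 0.397 CPM in clone 2 and 5.97 ± 0.411 CPM in clone 1, against 6.49 ± 0.755 CPM in WT, and fell in clone 2 (log2 fold change -0.80, adjusted p = 7.55e-07). FLT3LG, the ligand of FLT3, averaged 1.59 ± 0.161 CPM in clone 2 and 0.933 ± 0.176 CPM in clone 1, against 1.52 ± 0.268 CPM in WT, and was lower in clone 1 (-0.70, adjusted p = 0.0137). COL3A1, a collagen that binds ADGRG1, averaged 2.17 ± 0.51 CPM in clone 2 and 3.71 ± 0.184 CPM in clone 1, against 1.51 ± 0.3 CPM in WT, and was called in clone 1 (1.30, adjusted p = 1.19e-07) and higher in clone 2 below the fold minimum (0.53, adjusted p = 0.0285).

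Of the 9 transcription and chromatin factors, 8 could be tested. HLF, a bZIP factor of the PAR family that holds blood stem cells in a quiescent, self-renewing state, changed the most of all members. The gene lies on chromosome 17, at 55264960 to 55325187 on the plus strand. It read 0.339, 0.107 and 0.14 CPM in KO clone 2 and 0.329, 0.248 and 0.153 CPM in KO clone 1, against 2.22, 1.97 and 2.77 CPM in WT. All 6 knockout libraries were below all WT libraries, and the clones overlapped each other.

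The values of HLF rest on few reads, 24 counts over the 3 libraries of clone 2 and 22 over those of clone 1, against 256 in WT. The log2 fold change was -3.53 (SE 0.311, adjusted p = 1.75e-12) in clone 2 and -3.25 (SE 0.321, adjusted p = 3.15e-11) in clone 1. Over the 15 alternatives tried it lay between -4.18 and -3.26 in clone 2, and HLF was called in both clones in each of them. The authors' deposited table lists -3.36 with an adjusted p of 2.19e-22. No tested gene within 1 Mb of HLF was called lower in either clone, and 1 of the 6 was called higher in clone 1, ANKFN1, at 12.1 CPM in clone 2 and 15.7 CPM in clone 1, against 6.18 CPM in WT.

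The other factors rose slightly or differed between the clones. TCF4, an E protein that pairs with other helix-loop-helix factors, averaged 310 ± 1.34 CPM in clone 2 and 311 ± 3.58 CPM in clone 1, against 244 ± 3.17 CPM in WT (log2 fold changes 0.34 and 0.35). MLLT3, a part of the elongation machinery that maintains blood stem cells, averaged 111 ± 1.54 CPM in clone 2 and 127 ± 3.3 CPM in clone 1, against 96.8 ± 1.63 CPM in WT (0.19 and 0.39). NRIP1, a corepressor of nuclear receptors, averaged 273 ± 0.395 CPM in clone 2 and 304 ± 6.01 CPM in clone 1, against 246 ± 6.83 CPM in WT (0.15 and 0.31). These 3 genes passed the adjusted p in both clones, and MLLT3 and NRIP1 were lower in clone 2 than in clone 1 (-0.20 and -0.16 on the log2 scale, adjusted p = 7.26e-06 and 0.000294).

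BCL11A, a zinc-finger repressor, averaged 341 ± 1.83 CPM in clone 2 and 386 ± 2.7 CPM in clone 1, against 354 ± 9.12 CPM in WT, and passed in clone 1 alone (0.12, adjusted p = 0.00323). HOPX, an atypical homeodomain protein, averaged 126 ± 4.51 CPM in clone 2 and 138 ± 7.62 CPM in clone 1, against 127 ± 5.84 CPM in WT, and also passed in clone 1 alone (0.12, adjusted p = 0.0143), with libraries that overlapped those of WT. HOPX missed the threshold without KO clone 1 replicate 2 or 3 or WT replicate 1 (adjusted p = 0.125, 0.0524 and 0.113). MN1, a transcriptional coactivator, stayed at 1.16 ± 0.0112 CPM in clone 2 and 1.54 ± 0.168 CPM in clone 1, against 1.44 ± 0.267 CPM in WT, with log2 fold changes of -0.30 (SE 0.209) and 0.11 (SE 0.209).

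ZBTB46, a zinc-finger factor known from classical dendritic cells, lies on chromosome 20, at 63743668 to 63832038 on the minus strand. It read 3.54, 4.03 and 3.67 CPM in KO clone 2 and 2.38, 2.14 and 2.52 CPM in KO clone 1, against 1.75, 1.71 and 1.42 CPM in WT. None of the 3 groups overlapped. It was called in clone 2 (log2 fold change 1.20, SE 0.156, adjusted p = 3.94e-08) and passed the adjusted p in clone 1 (0.52, SE 0.171, adjusted p = 0.014), and the clones differed by 0.67 (SE 0.152, adjusted p = 0.000657). In clone 1 it missed the threshold without KO clone 1 replicate 3 or WT replicate 3 (adjusted p = 0.0651 and 0.0653). SLC2A4RG overlaps ZBTB46 on the opposite strand, at 9.51 CPM in clone 2 and 9.48 CPM in clone 1, against 11.8 CPM in WT. When reads were counted without regard to strand the clone 2 change of ZBTB46 was 0.78 (adjusted p = 7.56e-06), below the fold minimum. The clones then differed by 0.29 (adjusted p = 0.118). Of 43 tested genes within 1 Mb, 2 were called higher and 1 lower in clone 2, beside 1.83% and 4.13% of all tested genes. In clone 1, 2 were called higher and 3 lower, beside 2.6% and 4.98%. RGS19 and OPRL1 were higher in both clones, and HAR1A, at 0.458 CPM in WT, was lower in both.

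Both RNA-binding members fell slightly in both clones. MSI2, a translational regulator of blood stem cells, averaged 357 ± 6.73 CPM in clone 2 and 383 ± 7.1 CPM in clone 1, against 410 ± 11.1 CPM in WT (log2 fold changes -0.20 and -0.10, adjusted p = 1.21e-05 and 0.0284). ZFP36L2, which binds AU-rich elements and speeds mRNA decay, averaged 316 ± 11.8 CPM in clone 2 and 310 ± 9.25 CPM in clone 1, against 368 ± 13.5 CPM in WT (-0.22 and -0.25, adjusted p = 4.85e-06 and 4.6e-07). Neither gene's knockout libraries overlapped those of WT. In clone 1 MSI2 missed the threshold without KO clone 1 replicate 2, WT replicate 1 or WT replicate 2 (adjusted p = 0.106, 0.0647 and 0.0979).

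Among the 10 signalling, membrane and metabolic genes, 8 could be tested and NYNRIN had the largest change. NYNRIN encodes a protein with a nuclease-like domain and a stretch related to retroviral integrases, and its gene lies on chromosome 14, at 24399003 to 24419283 on the plus strand. It read 6.74, 5.98 and 6.26 CPM in KO clone 2 and 3.99, 4.56 and 3.93 CPM in KO clone 1, against 17.7, 18 and 16 CPM in WT. All knockout libraries were below all WT libraries, and the clone 1 libraries were all below those of clone 2.

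The fall of NYNRIN was 2.72-fold in clone 2 (log2 fold change -1.45, SE 0.0891, adjusted p = 2.99e-17) and 4.14-fold in clone 1 (-2.05, SE 0.0978, adjusted p = 4.6e-21), and the clones differed by 0.60 on the log2 scale (SE 0.106, adjusted p = 1.87e-05). The authors' deposited table lists -1.70 with an adjusted p of 1.31e-25. Its related neighbour KHNYN, 10 kb past it, averaged 61.1 CPM in clone 2 and 78.8 CPM in clone 1, against 66 CPM in WT. Among the 51 tested genes within 1 Mb, 1 was called lower in both clones: CIDEB, a lipid droplet protein gene 88 kb before NYNRIN, at 0.0848 CPM in clone 2 and 0.0636 CPM in clone 1, against 15.9 CPM in WT.

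**Figure D4:**
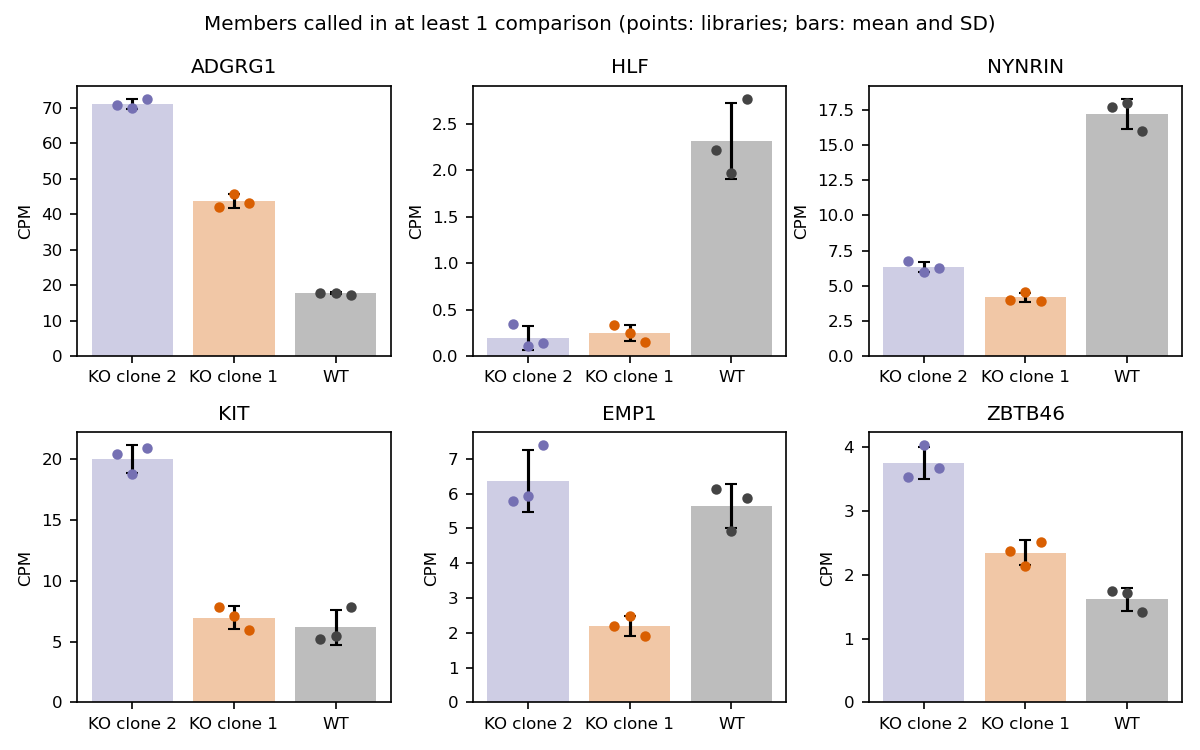
CPM of the 6 members called in at least 1 comparison, with a point for each library, bars for the group mean and lines for the SD (n = 3), in KO clone 2, KO clone 1 and WT. ADGRG1 is above and HLF and NYNRIN are below WT in both clones, KIT and ZBTB46 are highest in clone 2, and EMP1 is lowest in clone 1.

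EMP1, a membrane protein of the PMP22 family, lies on chromosome 12, at 13196723 to 13219941 on the plus strand. It read 5.79, 5.92 and 7.39 CPM in KO clone 2 and 2.2, 2.48 and 1.9 CPM in KO clone 1, against 6.13, 4.92 and 5.89 CPM in WT. Clone 1 lay below both other groups, and clone 2 overlapped WT. EMP1 was called in clone 1 (log2 fold change -1.36, SE 0.144, adjusted p = 1.84e-10), missed the threshold in clone 2 (0.18, SE 0.12, adjusted p = 0.292), and was called between the clones (1.54, SE 0.141, adjusted p = 1.28e-11). Of 16 tested genes within 1 Mb of EMP1, 2 were called lower in each clone, beside 4.13% of all tested genes in clone 2 and 4.98% in clone 1. DUSP16, a phosphatase gene 634 kb before EMP1, was called lower in both clones, at 0.489 CPM in clone 2 and 0.217 CPM in clone 1, against 9.08 CPM in WT. APOLD1, 367 kb before EMP1, was called lower in clone 2 alone (-1.06), and HTR7P1, 192 kb before it, in clone 1 alone (-1.06).

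ARHGAP22 and AKR1C3, an aldo-keto reductase of steroid and prostaglandin metabolism, fell in both clones by just under the fold minimum. ARHGAP22 averaged 26.2 ± 0.717 CPM in clone 2 and 25.6 ± 2.43 CPM in clone 1, against 46.8 ± 2.62 CPM in WT (log2 fold changes -0.84 and -0.87, adjusted p = 6.08e-16 and 3.05e-16). AKR1C3 averaged 13.6 ± 0.654 CPM in clone 2 and 12.2 ± 1.1 CPM in clone 1, against 23.1 ± 1.53 CPM in WT (-0.77 and -0.92, adjusted p = 1.33e-11 and 1.5e-13). Its near-identical relatives AKR1C1, AKR1C2 and AKR1C4 had 26, 51 and 5 counts in all 9 libraries together. Reads that fit several of them are not counted, so AKR1C3 is less certain than single-copy members.

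LAPTM4B, a lysosomal membrane protein, rose in clone 2, at 417 ± 8.04 CPM there and 300 ± 11.5 CPM in clone 1, against 285 ± 11.7 CPM in WT. Its log2 fold change was 0.55 in clone 2 (adjusted p = 3.48e-16) and 0.07 in clone 1 (adjusted p = 0.113), and the clones differed by 0.48 (adjusted p = 9.37e-14). Without KO clone 1 replicate 1, clone 1 passed the adjusted p as well (0.10, adjusted p = 0.0195). BAALC, named for its expression in brain and acute leukaemia, averaged 153 ± 1.94 CPM in clone 2 and 141 ± 6.27 CPM in clone 1, against 116 ± 3.43 CPM in WT (0.40 and 0.28, adjusted p = 3.59e-13 and 7.27e-09). Both of these rises were well under the fold minimum.

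FAM30A, a long noncoding RNA gene within the immunoglobulin heavy-chain locus, averaged 1380 ± 10.9 CPM in clone 2 and 1391 ± 51 CPM in clone 1, against 1088 ± 45.7 CPM in WT (log2 fold changes 0.34 and 0.35, adjusted p = 8.29e-10 and 2.61e-10). A second long noncoding gene overlaps it on the same strand with 12125 counts beside its 417527, and reads that fall in both cannot be split. SMIM24, a small membrane protein, averaged 283 ± 16.4 CPM in clone 2 and 267 ± 4.05 CPM in clone 1, against 260 ± 14.3 CPM in WT, and passed in clone 2 alone (0.12, adjusted p = 0.015) with overlapping libraries, but not without KO clone 2 replicate 2 or 3 or WT replicate 2 (adjusted p = 0.0856, 0.11 and 0.133).

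The genes of the LSC17 score did not all move the way of their weights. Of the 11 genes with a positive weight, 9 could be tested, and with the clones averaged 6 passed the adjusted p alone as higher and 3 as lower, with 1 of each called (ADGRG1 and NYNRIN). Their median log2 fold change was then 0.24, against 0.00 over all tested genes. In clone 2, 5 passed as higher and 1 as lower, and in clone 1, 4 as higher and 3 as lower. LAPTM4B, MMRN1 and EMP1 passed in 1 clone each, and missed the adjusted p with both clones pooled as 1 group (0.174, 0.123 and 0.647). DNMT3B and SOCS2 also passed in 1 clone each. DNMT3B missed the threshold in clone 2 (adjusted p = 0.314) and SOCS2 in clone 1 (adjusted p = 0.407). Only ADGRG1, CD34, FAM30A and NYNRIN of the positive-weight genes passed in both clones. All 6 genes with a negative weight could be tested. With the clones averaged 1 was higher (ZBTB46), 3 were lower (AKR1C3, ARHGAP22 and CPXM1) and none was called, with a median of -0.25. At the adjusted p alone 35.3% of all tested genes passed with the clones averaged, 16.4% higher and 18.9% lower. In clone 2 it was 30.5%, 14.4% higher and 16.1% lower, and in clone 1 36.2%, 17.4% higher and 18.8% lower. With the fold minimum 6.53% of all tested genes were called with the clones averaged, 2% higher and 4.53% lower. No score was computed.

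The 3 score genes outside the set changed little. DNMT3B, a DNA methyltransferase, averaged 345 ± 11.2 CPM in clone 2 and 258 ± 10.4 CPM in clone 1, against 357 ± 5.26 CPM in WT, and fell in clone 1 (log2 fold change -0.47, adjusted p = 2.13e-14). SOCS2, a feedback inhibitor of cytokine signalling, averaged 19.3 ± 1.45 CPM in clone 2 and 16.3 ± 0.43 CPM in clone 1, against 15.3 ± 1.07 CPM in WT, and rose in clone 2 (0.33, adjusted p = 0.000286). CDK6, a cell cycle kinase, missed the threshold in clone 2 (0.08, adjusted p = 0.0548) and in clone 1 (0.05, adjusted p = 0.298).

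**Figure D5:**
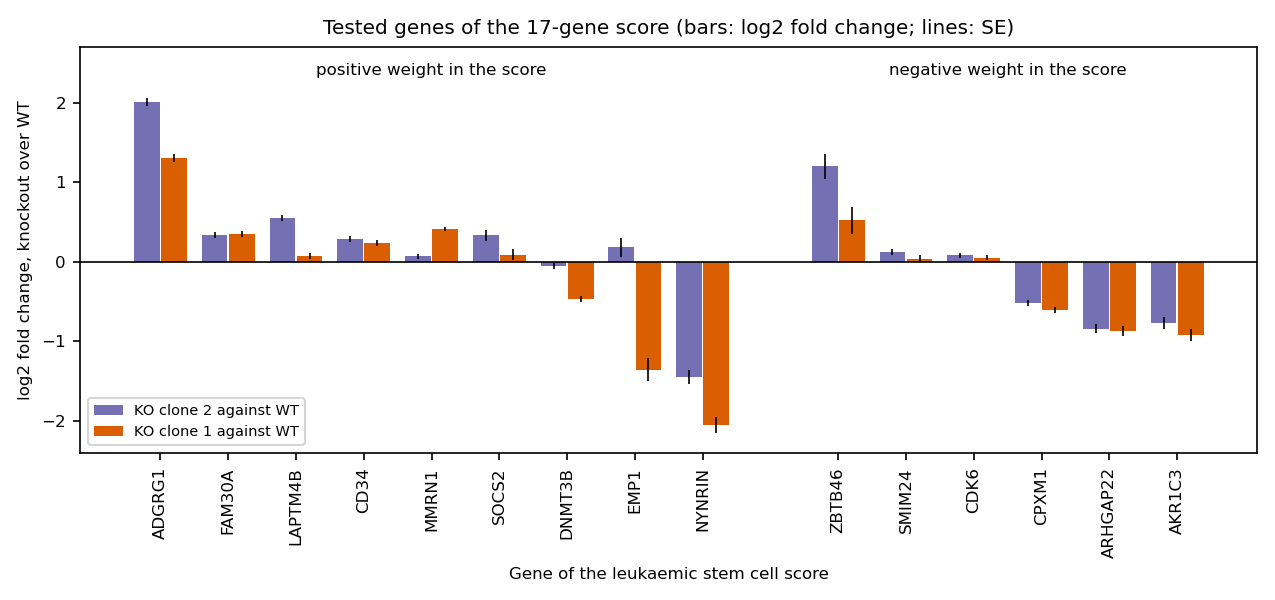
Log2 fold change against WT of the 15 tested LSC17 genes, split by the sign of their weight, for KO clone 2 and KO clone 1, with bars from 0 and lines for the SE. Positive-weight genes run from 2.01 for ADGRG1 in clone 2 to -2.05 for NYNRIN in clone 1, and negative-weight genes from 1.20 for ZBTB46 in clone 2 to -0.92 for AKR1C3 in clone 1.

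Genes of the same programme outside the set were read from lists. Of the 7 heptad transcription factors, which bind together at many stem cell enhancers, 5 passed the adjusted p alone as higher and 1 as lower with the clones averaged, beside 16.4% and 18.9% of all tested genes. Their median was 0.30 on the log2 scale, and 1 was called, beside 6.53% of all tested genes. That gene was TAL1, at 67.3 ± 0.352 CPM in clone 2 and 72 ± 4.2 CPM in clone 1, against 7.13 ± 0.577 CPM in WT (mean log2 fold change 3.29, adjusted p = 1.59e-37). LYL1, ERG and FLI1 rose by 0.47, 0.47 and 0.30 and LMO2 fell by 0.15 on the log2 scale, the last with an adjusted p of 0.00106.

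Of 32 other stem and progenitor genes, 26 could be tested, and 8 passed the adjusted p alone as higher and 12 as lower with the clones averaged, beside 16.4% and 18.9% of all tested genes, with a median of -0.04. Among the called genes were IGF2BP2, an RNA-binding protein (1.13), which was higher, and ITGA6, an integrin (-1.20), ABCG2, a drug efflux pump (-1.73), and ID2, an inhibitor of helix-loop-helix factors (-1.02), which were lower. IGF2BP2 averaged 127 ± 3.91 CPM in clone 2 and 131 ± 4.59 CPM in clone 1, against 58.8 ± 1.28 CPM in WT. ITGA6 averaged 63.6 ± 2.37 CPM in clone 2 and 43.7 ± 0.525 CPM in clone 1, against 121 ± 2.58 CPM in WT.

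Marker lists of other cell types moved beside the members. The summed level of 8 megakaryocyte markers was 698 to 718 CPM in clone 2 and 641 to 665 CPM in clone 1, against 428 to 460 CPM in WT. ITGA2B alone averaged 697 ± 11.3 CPM in clone 2 and 647 ± 13 CPM in clone 1, against 435 ± 16.1 CPM in WT, and rose in both clones (log2 fold changes 0.68 and 0.57). ITGB3, its partner integrin chain, averaged 7.38 ± 0.695 CPM in clone 2 and 1.94 ± 0.352 CPM in clone 1, against 10 ± 0.43 CPM in WT, and fell in both clones (-0.44 and -2.35, called in clone 1). In all, 5 of the 8 markers stayed under 1 CPM in every library with GP1BB at 0 counts. The 10 endothelial markers summed to 363 to 369 CPM in clone 2 and 376 to 380 CPM in clone 1, against 263 to 276 CPM in WT, with CDH5, a defining endothelial gene, at 0 counts and ESAM and PECAM1 called higher in both clones. EMCN of the same list fell to 73.6 ± 2.62 CPM in clone 2 and 73.3 ± 3.91 CPM in clone 1, against 101 ± 1.28 CPM in WT (-0.46 and -0.47), and KDR was called lower in clone 1 on 3 counts. The 10 T and NK cell markers summed to 335 to 352 CPM in clone 2 and 294 to 296 CPM in clone 1, against 548 to 586 CPM in WT, with 6 of 8 tested genes past the adjusted p as lower with the clones averaged, beside 18.9% of all tested genes. CD3D averaged 149 ± 6.49 CPM in clone 2 and 119 ± 4.22 CPM in clone 1, against 290 ± 8.5 CPM in WT. The part of these lists in the members' changes was not tested.

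Granulocyte, monocyte and erythroid markers were low in all groups. Granulocyte and monocyte markers summed to 8.56 to 9.42 CPM in clone 2 and 7.27 to 8.23 CPM in clone 1, against 11 to 11.4 CPM in WT, with 11 of the 12 under 1 CPM in every library. Of the 3 tested, CSF1R was called lower in clone 1 on 4 counts, against 43 in WT (-3.06, adjusted p = 0.000291). It missed the threshold in clone 2 (0.03, adjusted p = 0.965). ITGAM was lower in both clones below the fold minimum (-0.34 and -0.49 in clone 2 and clone 1), and CD14 missed the threshold in both. Erythroid markers summed to 1.26 to 1.65 CPM in clone 2 and 1.14 to 1.77 CPM in clone 1, against 1.85 to 2.25 CPM in WT, with AHSP, HBA2 and HBB at 0 counts. B lymphoid markers summed to 50.8 to 51.7 CPM in clone 2 and 32.5 to 35 CPM in clone 1, against 53.4 to 55.3 CPM in WT. Of these, DNTT, the terminal transferase of immature lymphoid cells, fell to 0.15 ± 0.0714 CPM in clone 2 and to 0 counts in clone 1, against 8.11 ± 0.156 CPM in WT, and was called lower in both clones (adjusted p = 3.13e-23 and 1.52e-23). IGLL1 averaged 34.1 ± 0.251 CPM in clone 2 and 21.5 ± 1.53 CPM in clone 1, against 29.1 ± 1.52 CPM in WT. PAX5 averaged 14.2 ± 0.287 CPM in clone 2 and 9.12 ± 0.566 CPM in clone 1, against 14.9 ± 0.437 CPM in WT. The other tested markers of this list, RAG1 and CD79A, lay higher than in WT. RAG1 averaged 0.968 ± 0.246 CPM in clone 2 and 1.46 ± 0.191 CPM in clone 1, against 0.7 ± 0.206 CPM in WT. It was called higher in clone 1 (1.08, adjusted p = 0.000948) and missed the threshold in clone 2 (0.49, adjusted p = 0.179). CD79A had log2 fold changes of 0.56 in clone 2 and 0.49 in clone 1 that missed the threshold.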

How the data were processed

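Total RNA of 9 KG-1a libraries was sequenced as 150-base read pairs, per the labels' protocols. The deposited per-gene files hold raw counts of pairs, from STAR on GRCh38 per the submitters' processing notes; the versions of STAR and of its annotation are not given in the sources used here. Each count file holds an unstranded counting and 1 for each strand, and counts only uniquely placed pairs. The strand that held 92.03% to 92.31% of stranded counts was used. Pairs not counted for a gene, 70.41% to 74.07% of all pairs, stayed out of library sizes. The authors also deposited a table of log2 fold changes and p-values, made with DESeq2 per the submitters' processing notes, for both clones against WT; it gave the symbols, and 18 columns of it were not used.

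Counts were fitted with edgeR 4.0.16 in R 4.3.3: filterByExpr by group (20655 genes), TMM scaling, a robust quasi-likelihood fit of all 9 libraries with 1 coefficient per group, and Benjamini-Hochberg adjustment over all tested genes. The adjusted p threshold was 0.05, and the fold minimum was 1 on the log2 scale. An approximate SE was taken from the size of the log2 fold change over the root of its F statistic. CPM uses TMM-scaled totals, and TPM uses exon lengths of GENCODE release 44. Alternatives were DESeq2 1.42.0, its size factors, no low-count filter, unstranded counts, a fit of each pair of groups alone, a replicate block, and leaving out each library. Positions come from GENCODE release 44 on GRCh38 and promoters from RefSeq, where 30 of the 37 members matched.

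The members and all 12 lists were chosen with earlier results of these data known. Named were all members, with values per library for those called in any contrast and for CD34, KIT, FLT3 and PROM1, up to 4 genes of each other list by smallest adjusted p, and PRMT2; other genes were chosen after their values were seen. A floor of 3 counts was 0.0695 to 0.107 CPM per library and speaks of counting error alone, because without molecular identifiers reads are not independent.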

Additional observations from a re-analysis of the deposited data

Results flagged for a closer look

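The difference between the clones was itself tested, as KO clone 2 over KO clone 1 in edgeR's quasi-likelihood test. At the adjusted p alone 16 of 31 tested members passed, beside 25.9% of all tested genes. With the fold minimum 2 members were called, KIT and EMP1, beside 2.82% of all tested genes. For KIT the effect in clone 2 minus that in clone 1 was 1.53 on the log2 scale (SE 0.116, adjusted p = 2.66e-10), with all 3 clone 2 libraries above all clone 1 and WT libraries. For EMP1 it was 1.54 (SE 0.141, adjusted p = 1.28e-11), with all 3 clone 1 libraries below all clone 2 and WT libraries. Both were called under each of the 15 alternatives tried.

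Reads on the strand opposite to a gene are outside the main measurement. They were fitted in the same way over 13913 genes, of which 4.46% were called in clone 2 and 5.92% in clone 1 against WT. Opposite to ADGRG1 they numbered 146 in clone 2 and 68 in clone 1, against 67 in WT, and were called higher in clone 2 (log2 fold change 1.02, SE 0.276, adjusted p = 0.0042). Opposite to CD200 they numbered 152 in clone 2 and 102 in clone 1, against 68 in WT, and were called higher in clone 2 (1.05, SE 0.264, adjusted p = 0.00189). Opposite to AKR1C3 they numbered 21 in clone 2 and 25 in clone 1, against 74 in WT, and were called lower in both clones (-1.89 and -1.28, adjusted p = 0.00044 and 0.0202). The own strands held 8648 and 3495 reads in clone 2 for ADGRG1 and CD200, both higher there than in WT too. Groups of 3 libraries were not tested for single outlying libraries.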

How the results depend on the processing

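Under 15 alternatives, 9 of which left out 1 library each, none of the 135 recomputed counts of members moved by more than 1.5 times. Of 1859 recomputed log2 fold changes of members, 1851 kept their side of the call rule of adjusted p and fold minimum together. At the adjusted p alone, 47 values lost the threshold and 12 gained it, in 15 members in all. A change of sign was seen in 38 values of 12 members, none past the adjusted p in either fit and all between -0.09 and 0.14, such as PROM1 in clone 2 at 0.14 without KO clone 2 replicate 2, against -0.04 with it. The call of ZBTB46 in clone 2 was lost with unstranded counts (0.78), and 7 values of KIT and TEK passed the fold minimum when a library was left out, as given with those genes. With 1 library left out, members called with the same sign in the 2 clones numbered 3 to 3, in clone 2 5 to 5, in clone 1 4 to 5, for the clones averaged 3 to 4 and between the clones 2 to 3. At the adjusted p alone they numbered 21 to 24 in clone 2, 21 to 24 in clone 1, 22 to 24 for the mean and 14 to 17 between the clones. Where both clones were pooled as 1 group, 18 members passed the adjusted p alone, against 23 in the fit of 3 groups. With the replicate number as a block, 5 members were called in clone 2, 4 in clone 1, 3 with the clones averaged, 2 between them and 3 in both. MMRN1 in clone 2 then passed the adjusted p alone (0.0498). The numbers do not pair the libraries, since deviations of same-numbered libraries correlated at -0.014 to 0.012. Depth limits HLF, TEK, MN1 and PROM1 most, and the 6 untested members could not be compared.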
